A study of Drosophila melanogaster with 4 samples.

Results

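The genes described here make the insect moulting hormone or start its making. They were taken by symbol from the deposited table of 15340 genes, from a list of 10 (phm, dib, sad, shd, spo, nvd, sro, Npc1a, Ptth and tor), and all 10 were present. Symbols were matched with their case, since the table also holds Phm and Tor, which are other genes. RNA came from 48 h old Drosophila melanogaster, labelled as whole larvae of the 2nd instar stage, with 2 RNA extractions from Xbp1 mutants and 2 from controls. The mutants carried the ex79 deletion of Xbp1 on both chromosomes. This imprecise excision takes out the start codon, a stretch upstream of it and the coding part for the DNA-binding domain, with the site that IRE1 splices. The controls, labelled WT, were a precise excision line from the same parent insertion line. No other allele, transgene or treatment is stated for either group, and the number of larvae in an extraction is not given in the sources used here. XBP1 is the transcription factor of the unfolded protein response that IRE1 activates by splicing its mRNA. The comparison asks how gene expression differs in larvae without Xbp1.

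Ecdysteroids are made in the prothoracic gland, a part of the ring gland beside the brain. Brain neurons release the hormone Ptth, which binds the receptor tyrosine kinase Torso, encoded by tor, on gland cells and raises hormone synthesis through Ras, Raf and ERK. Npc1a moves sterol out of the endosomal compartment, Nvd takes the initial step on cholesterol, and Spo and Sro act in the less understood steps after it. A trio of cytochrome P450 enzymes then hydroxylates the molecule in the order Phm, Dib and Sad to give ecdysone. Shd, another P450, converts ecdysone into the active hormone in peripheral tissues such as fat body, gut and Malpighian tubules. Pulses of the hormone time the moults.

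The values are normalized counts, that is, the reads of a gene divided by a size factor per library, which makes the libraries comparable. The reads on genes numbered between 37122025 and 38601267 in the mutant-labelled libraries and between 31416284 and 34947910 in the control-labelled libraries. A gene with 3 reads, taken here as the floor of detection, had a normalized count between 2.69 and 3.62, depending on the library. Xbp1 itself had 6087 and 5953 in the mutant-labelled libraries and 5521 and 7378 in the control-labelled libraries. The fitted log2 fold change of Xbp1 was -0.08 (limma, standard error 0.21), so this count per gene did not tell the labelled groups apart. It does not show the deleted stretch by itself, and whether that stretch lacked reads was not tested. The labels were thus not borne out by Xbp1, and the directions given are those of the labels.

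The labelled tissue was checked on markers of other organs. Akh, the hormone of the corpora cardiaca, which lie in the ring gland next to the prothoracic gland, had normalized counts of 1.79 and 1.03 in the mutant-labelled libraries and 2.7 and 1.21 in the control-labelled libraries. For jhamt, which makes juvenile hormone in the corpora allata of the same ring gland, they were 0.896 and 1.03 in the mutant-labelled libraries and 0 in both control-labelled libraries. The midgut trypsin gene alphaTry was at 0 in 3 of the 4 libraries and at 3.6 in control 1. All 5 midgut genes checked (alphaTry, betaTry, Amy-p, Mal-A1 and Vha100-4) summed to 246 and 177 in the mutant-labelled libraries and 98.1 and 82.0 in the control-labelled libraries, and 2 of the 5 passed the filter on low values. Against these stood 6 fat body genes, of storage proteins and of other fat body proteins (Lsp1alpha, Lsp1beta, Lsp1gamma, Lsp2, Fbp1 and Fbp2). Together they took 23.5% and 27.3% of the normalized counts in the mutant-labelled libraries and 22.2% and 27.1% in the control-labelled libraries. The products of these genes are known chiefly from the fat body of the third instar. The defining markers of both other ring gland parts were thus at or under the floor. Such scarcity alone does not tell whether these parts were present in the RNA source. The 6 fat body genes were plentiful in the libraries of both labels, and the larval stage was not tested. Whether the libraries held whole larvae was not tested. All 4 neuron markers checked (Syt1, elav, brp and nSyb) passed the filter, with sums of 9706 and 10153 in the mutant-labelled libraries and 8300 and 10815 in the control-labelled libraries, mostly from Syt1. With RNA of whole animals, fewer cells of a type and less RNA per cell cannot be told apart.

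The 10 genes fell into a plentiful set and a scarce set. The plentiful set was sro, shd and Npc1a, which had between 1213 and 3310 normalized counts in every library. The scarce set was the other 7 genes, which stayed at or under 59.4 in every library. Among the scarce genes were 5 of the 6 enzymes that act in the gland.

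**Figure D1:**
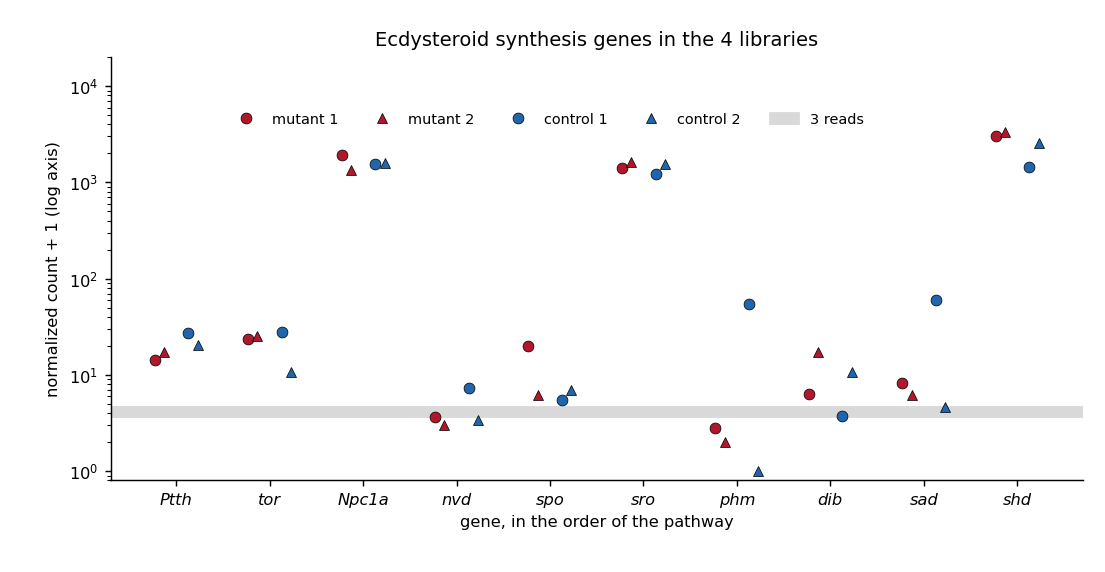
Normalized count plus 1 of each of the 10 genes on a log axis, 1 point per library, with libraries labelled mutant in red at the left of each gene, libraries labelled control in blue at its right, circles for replicate 1 and triangles for replicate 2, and a grey band for 3 reads. The genes sro, shd and Npc1a lie at 1213 or above in all libraries, the other 7 at or under 59.4, and the control 1 points of phm and sad stand far above the other points of these genes.

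Levels were compared between genes per kilobase of exon, with exons of the Ensembl annotation (release 115, dm6 coordinates). By the median over the 4 libraries, sro was the most abundant, at 1285 normalized counts per kb, with a range of 1051 to 1408. It was followed by shd, at 926 (range 477 to 1098), and Npc1a, at 303 (range 262 to 372). The ranges of sro and shd overlapped, while that of Npc1a lay under both. A wide gap followed, to Ptth at 15.8 (range 11.9 to 23.1), tor at 7.51 (range 3.08 to 8.63) and dib at 3.8 (range 1.37 to 8.31), also in normalized counts per kb. The last 4 by median were sad at 3.47, spo at 2.24, nvd at 1.48 and phm at 0.639 normalized counts per kb. From tor down, each gene overlapped its neighbour in this order, so the order among these genes was not beyond the spread of the libraries. In control 1 alone, sad (33.5 per kb) and phm (24.1 per kb) were instead the 4th and 5th most abundant of the 10.

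Fold changes are differences of log2(normalized count + 1), mutant minus control. They were fitted with limma over the 10500 genes whose mean normalized count reached 10. An adjusted p is the Benjamini-Hochberg value over these 10500 genes, with a threshold of 0.05. The smallest two-sided p that an exact permutation of 4 libraries allows for 1 gene is 0.333. Of the 10 genes, 7 passed the filter. The others, dib, spo and nvd, did not. Of the 7, phm and sad passed only through control 1, since their means over the other 3 libraries were 0.939 and 5.3.

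None of the 7 tested genes was called in limma, where 0.00952% of all genes tested were called (1 gene, higher in the mutant-labelled libraries, so 0.00952% higher and 0% lower). At an unadjusted p under 0.05 the count was also 0 of 7, beside 14.1% of all genes. The recovered whole reads were tested too. DESeq2 called 0 of these 7 genes and 3.05% of all genes, and edgeR called 0 of them and 0.00952% of all genes. An unadjusted p under 0.05 was reached by 1 of the 7 in DESeq2 (phm, with no adjusted p given; all genes, 17.1%) and 0 of the 7 in edgeR (all genes, 13.7%). The groups did not overlap for 2 of the 7 genes, shd and Ptth, while they did not overlap for 54.1% of all genes tested. The median log2 fold change of the 7 was 0.04, beside -0.03 over all genes tested.

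**Figure D2:**
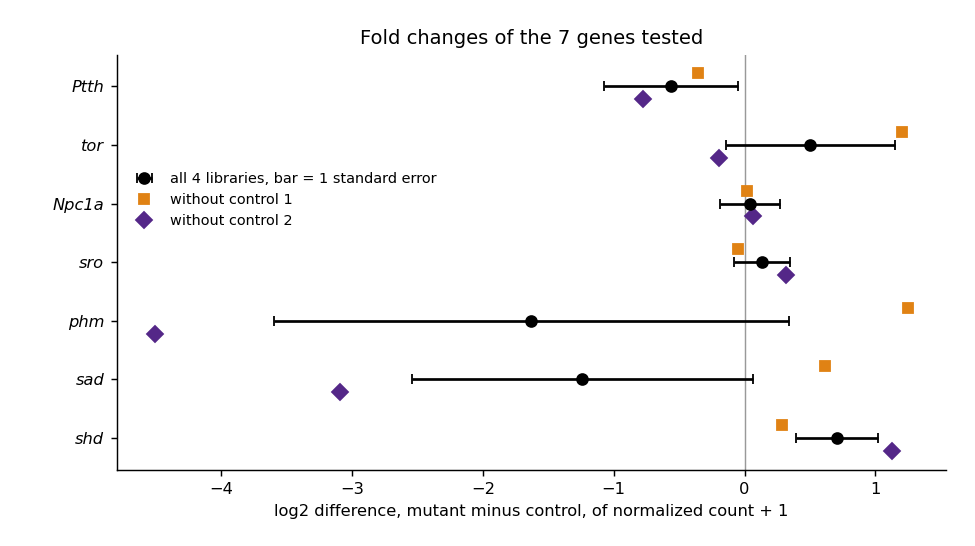
Log2 difference of normalized count plus 1, mutant minus control, for the 7 genes tested, with black points and bars for the fit of all 4 libraries and its standard error, orange squares for the fit without control 1 and purple diamonds for that without control 2. For phm and sad the square and the diamond lie on opposite sides of 0.

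Transcripts of the hormone that signals to the gland and of its receptor were scarce in all libraries. Ptth (FBgn0013323, chromosome arm 2L, 575711 to 576896, minus strand), the brain hormone, had normalized counts of 13.4 and 16.4 in the mutant-labelled libraries and 26.1 and 19.3 in the control-labelled libraries. Both mutant values lay under both control values, and they rest on 15 to 29 reads a library. Its fold change on the log2 scale was -0.57 (standard error 0.51, adjusted p = 0.571 in limma), about as large as its error. The receptor gene tor (FBgn0003733, 2R, 7705183 to 7709184, minus strand) had 22.4 and 24.6 in the mutant-labelled libraries and 27 and 9.65 in the control-labelled libraries. Here the lowest and the highest value both belonged to the controls. The log2 fold change of tor was 0.50 (standard error 0.65, adjusted p = 0.691 in limma) with all libraries, 1.2 without control 1 and -0.19 without control 2.

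For sterol supply, the groups overlapped. Npc1a (FBgn0024320, 2L, 10213812 to 10221216, minus strand) had normalized counts of 1933 and 1360 in the mutant-labelled libraries and 1548 and 1604 in the control-labelled libraries. Both control values lay between the mutant values. The log2 fold change of 0.04 (standard error 0.23) had an adjusted p of 0.934 in limma, and its sign turned with 2 other scalings, to -0.030 when all libraries were set to an equal total and -0.068 with quantile normalization.

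The genes of the early enzymes of the gland were scarce, with the exception of sro. The Rieske oxygenase gene nvd (FBgn0287185, 3L, 24324866 to 24401655, plus strand), which takes cholesterol into the pathway, had 2.69 and 2.05 in the mutant-labelled libraries and 6.3 and 2.41 in the control-labelled libraries. These values rest on 2 to 7 reads. For spo (FBgn0003486, 3L, 5590083 to 5592571, minus strand), a P450 gene best known from the embryo and the ovary, they were 18.8 and 5.13 in the mutant-labelled libraries and 4.5 and 6.03 in the control-labelled libraries. Only mutant 1, with 21 reads, stood above the other libraries, which had 5 reads each. Its paralog spok, which serves the same step in the larval gland, had 4.48 and 1.03 in the mutant-labelled libraries and 11.7 and 1.21 in the control-labelled libraries. Neither spo nor spok was past the filter. With no filter, the log2 fold changes were 0.83 for spo (standard error 0.76, adjusted p = 0.609 in limma) and -0.57 for nvd (standard error 0.65, adjusted p = 0.674 in limma).

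The short-chain dehydrogenase gene sro (FBgn0262112, 3R, 29794597 to 29795805, plus strand) was the exception. It had normalized counts of 1402 and 1625 in the mutant-labelled libraries and 1213 and 1563 in the control-labelled libraries, from 1296 to 1585 reads a library. The groups overlapped, and the spread within each group was small beside the level. For sro limma gave a log2 fold change of 0.13 with a standard error of 0.21 and an adjusted p of 0.753, and -0.050 without control 1. In every library sro thus stood above phm, dib, sad, spo and nvd, the other enzymes of the gland. Which tissue these sro transcripts came from was not tested.

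The hydroxylases that finish ecdysone in the gland were scarce, and control 1 decided the values of both phm and sad. The gene phm (FBgn0004959, now named phtm in RefSeq, X, 18685766 to 18688433, plus strand) had normalized counts of 1.79 and 1.03 in the mutant-labelled libraries and 53.1 and 0 in the control-labelled libraries. These are 2, 1, 59 and 0 reads, with exact 95% Poisson intervals of 0.242 to 7.22 for mutant 1 and 44.9 to 76.1 for control 1, which cover counting error only. Control 1 was at least 14.7-fold above control 2, with control 2 set at its floor of 3 reads. The groups therefore overlapped, with control 1 above and control 2 under both mutant-labelled libraries. The limma fit gave a log2 fold change of -1.63 with a standard error of 1.97 and an adjusted p of 0.67 with all libraries, -4.51 without control 2 and 1.25 without control 1.

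The pattern of sad was the same. The gene sad (FBgn0003312, 3R, 11877235 to 11879754, plus strand), whose enzyme takes the last step in the gland, had 7.17 and 5.13 in the mutant-labelled libraries and 59.4 and 3.62 in the control-labelled libraries. Control 1 stood 16.4-fold above control 2, with a 95% counting interval of 5.38 to 81.7, from 66 reads against 3. The fold change of sad was -1.24 on the log2 scale (standard error 1.30, adjusted p = 0.622 in limma) with all libraries, -3.09 without control 2 and 0.62 without control 1.

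The gene dib (FBgn0000449, 3L, 4062292 to 4064551, plus strand), which encodes the hydroxylase between Phm and Sad, did not share this pattern. It had normalized counts of 5.38 and 16.4 in the mutant-labelled libraries and 2.7 and 9.65 in the control-labelled libraries. Control 1 was the lowest of the 4 libraries here, with 3 reads, and both replicate 2 libraries were higher than both replicate 1 libraries. With no filter limma gave a log2 fold change of 0.75 with a standard error of 0.84 and an adjusted p of 0.674.

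Shd (FBgn0003388, 3L, 14614458 to 14622205, plus strand), the peripheral hydroxylase that makes the active hormone, had the lowest unadjusted p of the 7 in limma (in DESeq2 that was phm). Its normalized counts were 3000 and 3310 in the mutant-labelled libraries and 1439 and 2583 in the control-labelled libraries. Both mutant values lay above both control values, from 1599 to 3348 reads a library. The log2 fold change was 0.71 (standard error 0.31, unadjusted p = 0.0711, adjusted p = 0.349 in limma), and it did not pass the test. It was largest where control 1, the lowest library, was kept and control 2 left out, since the log2 fold change was 0.29 without control 1 and 1.13 without control 2. DESeq2 gave an adjusted p of 0.329.

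Some exons are shared with genes on the other strand, and the strand setting of the counting is not given in the sources used here. The gene dib shares 400 bp, or 20.3% of its exonic length, with wit, whose normalized counts were between 474 and 986. The gene spo shares 12.4% of its exonic length with l(3)psg2, sro shares 9.45% with Rnb, sad 2.99% with CG6962 and Ptth 2.13% with cold. The exons of phm, nvd, shd, Npc1a and tor overlap no other annotated gene. For dib and spo, which were scarce beside an abundant neighbour, the levels are therefore uncertain.

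Likeness to phm was measured as the root mean square difference of log2(normalized count + 1), centred on the mean of each gene, over the 4 libraries. The 3 most alike genes were CG31789 (difference 0.27), CG7953 (0.31) and CG6933 (0.38). CG31789 had normalized counts of 0.896 and 1.03 in the mutant-labelled libraries and 58.5 and 0 in the control-labelled libraries. The gene sad ranked 11th of 10499 genes, at 0.75. Both phm and sad passed the filter only through control 1, so a shared peak there was built in by the filter. The rank of sad is therefore a description only. The next of the 7 tested genes was tor, which ranked 2193rd at 1.89, and shd ranked last of them, 9907th at 2.62.

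**Figure D3:**
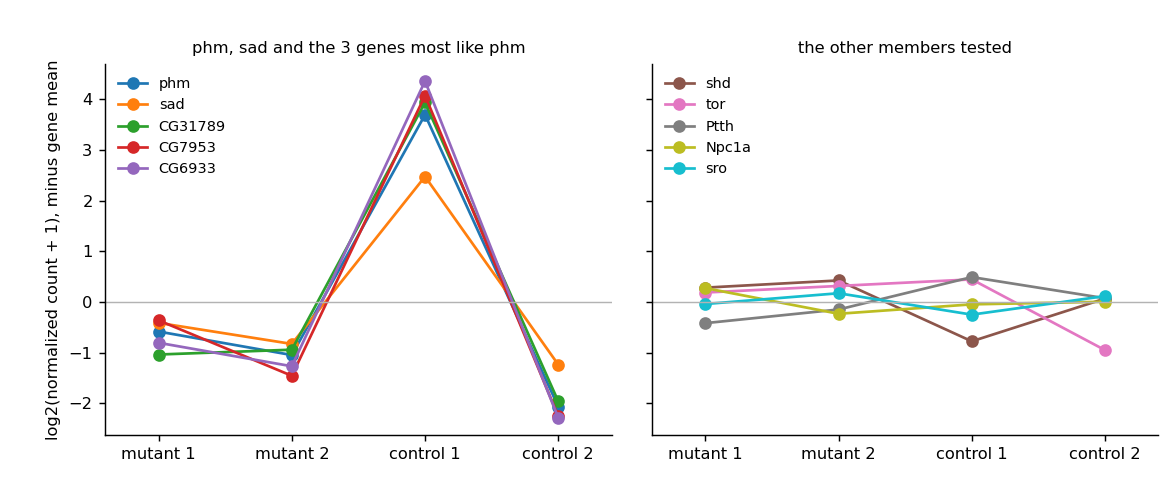
Log2(normalized count + 1) minus the mean of the gene, over the 2 libraries labelled mutant and the 2 labelled control, for phm, sad and the 3 genes most like phm at the left, and for the 5 other genes tested at the right. The left profiles all peak in control 1, by 2 or more above the mean of the gene, while the right ones stay within 1 of it.

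The genes with such a peak in control 1 were counted, a step chosen after the values were seen. In control 1, 24 of 10500 genes were at least 8-fold above each of the other 3 libraries on the scale of normalized count plus 1, and phm was among them. The same count was 8 for mutant 1, 0 for mutant 2 and 2 for control 2. Among the 24 were serine protease genes of the gut such as Jon65Aiv, which had 3.58 and 13.3 in the mutant-labelled libraries and 2616 and 22.9 in the control-labelled libraries. The lysozyme gene LysS had 0 and 2.05 in the mutant-labelled libraries and 475 and 3.62 in the control-labelled libraries. The 7 regulators of spermatocyte transcription (aly, can, sa, mia, nht, topi and comr) were also highest in control 1, with summed normalized counts of 146 and 472 in the mutant-labelled libraries and 1268 and 550 in the control-labelled libraries. For 6 of these 7, both mutant values also lay under both control values (85.7%, beside 27.9% of all genes tested). DESeq2 called 2 of the 7 lower, aly (adjusted p = 0.0177) and sa (0.0294), beside 1.39% of all genes. With the replicate block in DESeq2 these became 0.0569 and 0.206, and limma called 0. Of the 5 midgut genes, alphaTry and betaTry were highest in control 1, while the sum of the 5 was not. Neither Akh nor jhamt was above 2.7 in control 1. Of the other enzyme genes of the gland, nvd (6.3) and spok (11.7) were also highest in control 1, both under the filter. In contrast, dib (2.7), spo (4.5) and sro (1213) were lowest there, with dib and spo also under the filter. The 5 reads of spo in control 1 equalled its reads in mutant 2 and control 2. The part of gut or other tissue in the control 1 values of phm and sad was not tested.

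The other genes of the pathway were described in 5 lists with 66 genes, of which 56 passed the filter. In limma, 0 of the 56 were called in either direction, while 2 lower and 3 higher genes had p under 0.05 before adjustment (all genes, 7.24% and 6.89%). By DESeq2, 1 was called lower and 2 higher (all genes, 1.39% and 1.66%), and by edgeR 0 were called, with 2 lower and 3 higher before adjustment (all genes, 6.84% and 6.9%). The groups did not overlap for 5 genes that were lower and 18 that were higher in the mutant-labelled libraries, which is 8.93% and 32.1% of the 56, beside 27.9% and 26.2% of all genes tested. The median log2 fold change was 0.24 with all libraries, 0.10 without control 1, 0.36 without control 2, 0.06 without mutant 1 and 0.39 without mutant 2.

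**Figure D4:**
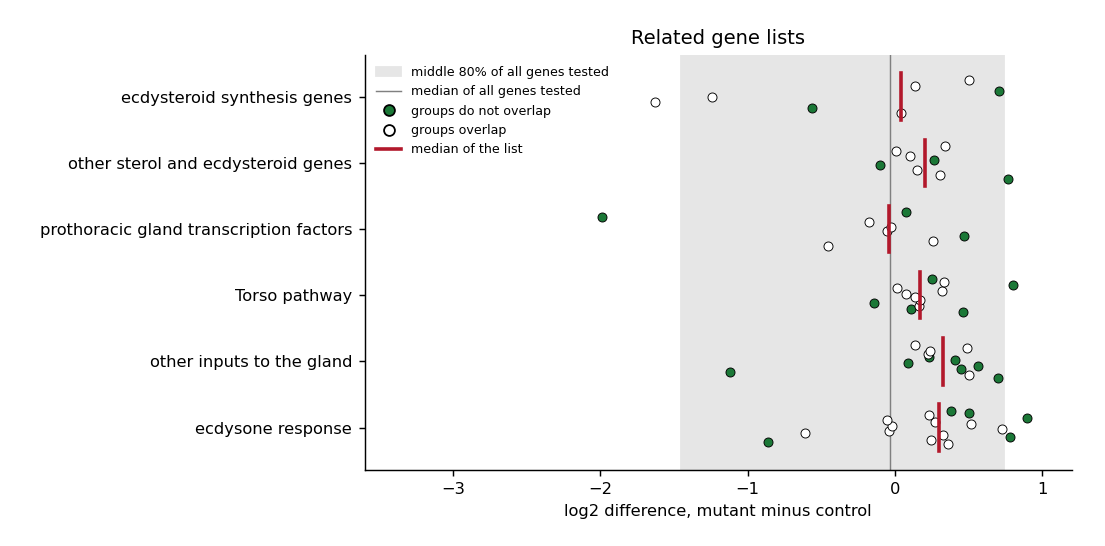
Log2 difference, mutant minus control, of each gene tested in the 10 ecdysteroid synthesis genes and the 5 related lists, green where the libraries labelled mutant all lay on one side of the libraries labelled control, with a red bar for the median of each list, a grey band for the middle 80% of all genes tested and a grey line for their median. The medians of the lists lie between -0.04 and 0.32, and most points lie within the band.

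Among other sterol and ecdysteroid genes, 8 of 12 passed the filter, with 0 called and a median log2 fold change of 0.21 (0.03 to 0.44 when 1 library was left out). Atet, which loads ecdysone into the secretory vesicles of the gland, had normalized counts of 361 and 394 in the mutant-labelled libraries and 208 and 235 in the control-labelled libraries (log2 fold change 0.77, standard error 0.22, adjusted p = 0.347 in limma). The spread within each group was small here beside the difference. The importer gene Oatp74D, through which ecdysone enters target cells, had 2159 and 2389 in the mutant-labelled libraries and 1626 and 2750 in the control-labelled libraries, and the groups overlapped. Npc2a, which works with Npc1a on sterol, had 3298 ± 2.39 in the mutant-labelled libraries and 2757 ± 351 in the control-labelled libraries (SD, n = 2 each; log2 fold change 0.26, adjusted p = 0.462 in limma). Hr96, a sterol-responsive nuclear receptor gene, had a log2 fold change of -0.10 (adjusted p = 0.815 in limma).

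Among the transcription factors of the gland, 8 of 10 passed the filter, with 0 called and a median of -0.04 (-0.12 to 0.14 when 1 library was left out). The POU factor gene vvl, needed for the expression of the gland's enzymes, had 2.69 and 4.1 in the mutant-labelled libraries and 10.8 and 24.1 in the control-labelled libraries (log2 fold change -1.99, standard error 0.73, adjusted p = 0.347 in limma). The nuclear receptor gene ftz-f1 had 183 and 187 in the mutant-labelled libraries and 132 and 134 in the control-labelled libraries (log2 fold change 0.47, adjusted p = 0.382 in limma). The zinc finger gene woc had a log2 fold change of 0.08 (adjusted p = 0.831 in limma). Thus ftz-f1 lay higher and vvl lower in both mutant-labelled libraries, and neither passed the test. For vvl, mutant 1 lay at its floor of 2.69, and mutant 2, at 4.1, was close to its floor of 3.08. Of the zinc finger genes ouib and mld, ouib acts on spok, and mld on spok and nvd. In this order they had normalized counts of 9.23 to 16.2 and of 416 to 499, and their groups overlapped.

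In the Torso pathway, 12 of 13 genes passed the filter, with 0 called and a median of 0.17 (0.06 to 0.27 when 1 library was left out). The ETS factor gene pnt had 901 and 954 in the mutant-labelled libraries and 356 and 791 in the control-labelled libraries (log2 fold change 0.80, standard error 0.40, adjusted p = 0.366 in limma). Dsor1, the MEK of the fly, had 280 and 275 in the mutant-labelled libraries and 181 and 224 in the control-labelled libraries (log2 fold change 0.46, adjusted p = 0.38 in limma). The gene tsl, which acts on Torso in the embryo, had a log2 fold change of 0.25 (adjusted p = 0.522 in limma). These genes serve many receptors and tissues, and all 12 were measured at over 100 normalized counts in every library.

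Among other inputs to the gland, 12 of 15 genes passed the filter, with 0 called and a median of 0.32 (0.13 to 0.62 when 1 library was left out). The insulin receptor gene InR had 2659 and 2015 in the mutant-labelled libraries and 1325 and 1852 in the control-labelled libraries (log2 fold change 0.56, adjusted p = 0.35 in limma). Alk, a receptor tyrosine kinase gene, had 7.17 and 7.18 in the mutant-labelled libraries and 18 and 15.7 in the control-labelled libraries (log2 fold change -1.12, standard error 0.57, adjusted p = 0.369 in limma). The serotonin receptor gene 5-HT7 had a log2 fold change of 0.70 (adjusted p = 0.513 in limma). The groups did not overlap for 6 higher genes and 1 lower gene of the 12, beside 26.2% higher and 27.9% lower over all genes tested.

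The ecdysone response, downstream of the hormone, held the calls that DESeq2 made in the 5 lists, while limma and edgeR made 0 without a block. All 16 genes passed the filter, and their median log2 fold change was 0.30 (-0.03 without mutant 1, 0.59 without mutant 2). Eip75B, an early nuclear receptor gene induced by the hormone, had 17907 and 15297 in the mutant-labelled libraries and 9940 and 9327 in the control-labelled libraries (log2 fold change 0.78, standard error 0.20, adjusted p = 0.347 in limma, 0.0495 in DESeq2). Kr-h1, a zinc finger gene induced by juvenile hormone and by ecdysone, had 3452 and 2779 in the mutant-labelled libraries and 1623 and 1703 in the control-labelled libraries (log2 fold change 0.90, standard error 0.19, adjusted p = 0.343 in limma, 0.0339 in DESeq2). Eip71CD, a methionine sulfoxide reductase gene, had 1807 and 1862 in the mutant-labelled libraries and 3608 and 3075 in the control-labelled libraries (log2 fold change -0.86, standard error 0.18, adjusted p = 0.343 in limma, 0.0339 in DESeq2). These 3 genes thus differed in 2 directions. When replicate number entered DESeq2 as a block, the adjusted p became 0.101, 0.0996 and 0.114, in the order given.

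The receptor itself was plentiful. EcR had normalized counts of 4747 and 5635 in the mutant-labelled libraries and 2791 and 5844 in the control-labelled libraries, and the groups overlapped. Its partner gene usp had 660 and 584 in the mutant-labelled libraries and 436 and 523 in the control-labelled libraries (log2 fold change 0.38, standard error 0.21, adjusted p = 0.393 in limma). The genes for uptake (Oatp74D), activation (shd) and reception (EcR, usp) of the hormone in target tissue were thus measured at 436 to 5844 normalized counts, whereas the enzyme genes of the gland (nvd, spo, phm, dib and sad) stayed at or under 59.4, with sro as the exception.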

How the data were processed

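Total RNA of 4 libraries (2 labelled mutant, 2 labelled WT) was depleted of ribosomal RNA, made into stranded libraries and read as 50 nt pairs. According to the study's methods, the authors mapped reads with TopHat2 (2.1.1) on dm6, counted them per gene with HTSeq (0.6.1) and used DESeq2. The deposited signal values are read counts divided by size factors. All 15340 values of each library were whole multiples of 1 step (100% within 0.01 read), so reads were recovered. Intervals and floors cover counting error only, and p-values measure the spread between these extractions.

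Genes with a mean of at least 10 were tested with limma 3.58.1 (lmFit, eBayes with trend, R 4.3.3) on log2(normalized count + 1), without a block, with Benjamini-Hochberg adjustment over 10500 genes. A pseudocount understates fold changes of scarce genes. DESeq2 1.42.0 and edgeR 4.0.16 (quasi-likelihood test) on recovered reads were alternatives, as were pseudocounts of 0.5 and 5, no filter, a mean of at least 50, the replicate block, leaving out each library, eBayes without trend, quantile normalization and libraries set to an equal total. Gene positions, exons and overlaps came from Ensembl release 115. Of the listed symbols, Fdx1, ouib, Raf, Hr3 and nSyb were matched through older symbols.

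The genes and lists were chosen with earlier results of these data known. Genes named were all 10 synthesis genes, called genes of the lists, the 3 largest changes per list among genes whose groups did not overlap, Xbp1, and the 3 genes most like phm. Akh, jhamt, alphaTry, Oatp74D, EcR, usp, ouib, mld, spok, Jon65Aiv and LysS were named for their role or after their values were seen. No sequence is shown, and the promoter motif search was not run.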

Additional observations from a re-analysis of the deposited data

How the results depend on the processing

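No ecdysteroid synthesis gene was called under any alternative run, with adjusted p from 0.164 to 0.999 where one was given. The signs that turned were those of Npc1a (-0.030 when all libraries were set to an equal total, -0.068 with quantile normalization, -0.21 without mutant replicate 1), phm (1.25), sad (0.62) and sro (-0.050) without control replicate 1, and tor (-0.19) and Xbp1 (0.12) without control replicate 2. Over the fits without 1 control, the log2 fold change ranged from -4.51 to 1.25 for phm, -3.09 to 0.62 for sad, -0.050 to 0.32 for sro, -0.19 to 1.2 for tor and -0.29 to 0.12 for Xbp1. Leaving out a library leaves 1 library in a group, which is then assumed to vary like the others. The median log2 fold change of the synthesis genes, 0.04 with all libraries, ranged from -0.21 to 0.29 over the fits without 1 library. The median of the ecdysone response list was -0.03 without mutant replicate 1.

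Against 0 genes lower and 1 higher over the whole table, quantile normalization gave 9 higher and no filter 3 higher, with 4 lower and 10 higher when all libraries were set to an equal total, and 0 higher for eBayes without trend. By DESeq2 the calls were 146 lower and 174 higher, of which 1 lower and 2 higher were in the related lists. Without one library, 0 to 131 were lower and 0 to 39 higher, the highest counts being those without mutant replicate 2. Why these counts differ was not tested.

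The replicate block left 0 lower and 0 higher in limma, where 361 were lower and 500 higher before adjustment at p under 0.05, and 76 lower and 92 higher in DESeq2. Deviations of same-numbered libraries correlated at -0.443 across genes, which are not independent, so the numbers were not taken as pairs. The crossed block, chosen after seeing the data, called 1410 lower and 390 higher in limma, and 1209 and 327 with DESeq2, with 0 synthesis genes and 2 ecdysone response genes in either.

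Among the synthesis genes, depth limits phm, nvd, spo, dib and sad, which rest on 8 or fewer reads in at least 2 libraries each. For phm and sad the controls also differ from each other by more than counting error. No difference between groups was detectable for nvd, spo and dib at this depth.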
